A study of Mus musculus with 4 samples.

Results

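Transcripts of the glycolytic pathway and of the cellular response to low oxygen were followed in mammary epithelial cells of hyperplastic glands and tumors, profiled by single-cell RNA sequencing. The set was given as 31 gene names, with no threshold on measured differences. A row with at least 10 unique molecular identifiers (UMIs, each standing for 1 captured transcript) over the annotated cells of all libraries was required, and 30 of the 31 genes met this, among 31781 genes with a row in any library. Pgam1 was not analysed here. Of the 30, 10 act in glucose uptake and upper glycolysis, 4 in lower glycolysis and 3 in the handling of pyruvate and lactate, and 13 are known hypoxia-response genes.

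All mice carried the MMTV-PyMT transgene, in which the mouse mammary tumor virus promoter drives the polyoma middle T oncoprotein in mammary epithelium. WT hyperplasia and WT tumor are the libraries of mice of the wild type genotype, which here means wild type for PKA. PKA hyperplasia and PKA tumor came from mice of the PKA activated genotype, PKA being the cAMP-dependent protein kinase. The allele that activates PKA, the cells in which it acts, the number of mice behind a library and the gate of the cell sort are not stated in the labels. Glands were taken at 8 to 9 weeks. Tumors were taken at 16 to 20 weeks by the sample labels and at 22 weeks by the series design. Each of the 4 groups is 1 library, so no test was possible, no difference has a replicate check, and every interval below is a 95% interval of counting error that compares libraries and not conditions.

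Glycolysis splits glucose into pyruvate in the cytosol, and lactate dehydrogenase turns pyruvate into lactate when it is not burnt in mitochondria. When oxygen is scarce, the prolyl hydroxylases that mark the alpha subunits of the hypoxia-inducible factors (HIF) for destruction slow down, and HIF then pairs with Arnt and binds short DNA motifs near its target genes. Its known targets include most glycolytic enzymes, the angiogenic factor Vegfa and a group of stress and mitophagy genes, and this program is commonly active in fast-growing mammary tumors with poor blood supply.

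Levels are counts per 1e6 UMIs (CPM), summed over the cells of a library and class, with the classes as the authors deposited them. The annotated cells numbered 2638 to 5181 per library, with medians of 2557 to 5890.5 UMIs per cell, and 16 to 24 cell barcodes were shared between any 2 libraries. The tumor libraries were deeper per cell than the gland libraries. Mature Luminal markers (Pgr, Prlr, Foxa1, Gpx3 and Esr1) and Basal markers (Krt14, Krt5 and Snai2) were highest in the classes of their names in the glands. The class named EMT-like went against its label. Its 4 markers summed to 255 CPM in the WT and 365 CPM in the PKA tumor, under the 573 to 1476 CPM of the other tumor classes. There, Trim29 and Cldn6 had 0 UMIs in both tumors, and Vim stood at 10.6 and 25.8 CPM in WT and PKA, so the name is used here only as the deposited label. The Luminal Progenitor markers (Cd14, Kit and Lalba) summed to 2538 and 7457 CPM in that class, above the 2116 and 5033 CPM of Luminal Progenitor 1 cells in the same tumors. The Lumino-Basal markers (Krt14, Krt8 and Cd14) did not set their class apart either, with 3410 CPM there and 4563 CPM in Mature Luminal cells of the WT tumor, and 4142 CPM there and 3960 CPM in Luminal Progenitor 1 cells of the PKA tumor. In the Lumino-Basal class, Krt14 stood at 948 and 727 CPM in WT and PKA, while the basal gene Snai2 had 0 UMIs in both. The deposited Basal class of WT hyperplasia also carried the fibroblast gene Col1a2 at 348 CPM, against 168 CPM in PKA, and C1qa of macrophages at 137 CPM, against 1.95. Doublets were not removed.

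Reads of some members could also match other genes. For 7 members (Gpi1, Gapdh, Pgk1, Eno1, Ldha, Bnip3 and Mif), 3 or more other annotated genes held a stretch of at least 98 bases, the read length, at 95% identity or more. Gapdh, which oxidizes glyceraldehyde 3-phosphate, had 197 UMIs in the 4 libraries together, whereas 75 other rows with such a stretch held 5105. Pgk1 had 234 UMIs and Bnip3 had 113. For Gpi1, other rows with such a stretch held 9477 UMIs beside 7955 of its own, and for Mif 394 beside 1075. Levels of Gapdh, Pgk1, Bnip3, Gpi1 and Mif are therefore uncertain in every class below.

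In the Luminal Progenitor 1 cells of the tumors, a few hypoxia-response genes stood lower in PKA than in WT, while most glycolytic enzymes stood within 1.5-fold. All 30 members had at least 30 UMIs in both tumor libraries together. A member with that many UMIs was counted as higher or lower when the 2 libraries differed by at least 1.5-fold, and a log2 ratio is that of CPM in PKA over CPM in WT with 0.5 UMIs added, followed by its interval. By this measure 6 members were lower in the PKA tumor, against 10.5% of 14753 genes, and 2 were higher, against 15.7%. The median log2 ratio was -0.09 over the members and -0.01 over all genes.

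Among the 10 genes of uptake and upper glycolysis, 1 was lower and 0 were higher. Aldoc, a fructose-bisphosphate aldolase, stood at 306 CPM in the WT gland, 245 in the PKA gland, 1262 in the WT tumor and 639 in the PKA tumor. Its log2 ratio in the tumors was -0.98 (-1.02 to -0.94). The WT tumor was thus the highest of the 4 libraries, and the PKA tumor stood between it and the glands. Aldoa, the more widely used aldolase, stood at 1918 and 1392 CPM in the WT and PKA tumor, with a log2 ratio of -0.46 (-0.49 to -0.43) that stayed within 1.5-fold. The glucose transporter Slc2a1 differed little, at 82.5 against 88.2 CPM (0.10, -0.03 to 0.22). The hexokinase Hk1, which traps glucose in the cell by phosphorylating it, stood at 81.2 and 87.8 CPM (0.11, -0.01 to 0.24). Hk2, the inducible hexokinase, was sparse, with 7.81 and 11.3 CPM (0.53, 0.13 to 0.93). The phosphofructokinases Pfkl and Pfkp had log2 ratios of -0.07 and -0.34. Pfkfb3, which makes the activator of phosphofructokinase, had -0.01. The glucose phosphate isomerase Gpi1 had -0.04. Uptake and the first steps thus lay within 1.5-fold in the 2 tumor libraries, apart from Aldoc. Triose-phosphate isomerase, Tpi1, was somewhat above WT at 181 against 139.7 CPM (0.37, 0.28 to 0.46).

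None of the 4 lower-glycolysis genes passed 1.5-fold in either direction. Pkm, which encodes pyruvate kinase, stood at 452, 548, 1197 and 1328 CPM in the WT gland, the PKA gland, the WT tumor and the PKA tumor. Both tumors were above both glands, and the tumors differed by 0.15 (0.12 to 0.18). Eno1, the enolase, stood at 249.6 and 263.4 CPM in WT and PKA tumor (0.08, 0.00 to 0.15). The sparsely counted Gapdh and Pgk1 had -0.32 (-1.01 to 0.37) and -0.34 (-0.95 to 0.28).

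Ldha, the lactate dehydrogenase subunit that favours lactate, was the 1 lower gene of the 3 that handle pyruvate and lactate. It stood at 1143 CPM in the WT gland, 1442 in the PKA gland, 2125 in the WT tumor and 1248 in the PKA tumor. The WT tumor stood apart, and the PKA tumor lay between the glands. The tumor log2 ratio was -0.77 (-0.80 to -0.74). Its partner Ldhb, which favours pyruvate and is not among the 31, went the other way at 149 against 234 CPM (0.66, 0.57 to 0.74). Pdk1, a kinase that inhibits pyruvate dehydrogenase, stood at 32.5 and 42.9 CPM (0.40, 0.21 to 0.60). The lactate exporter Slc16a3 was close to undetected, with 15 UMIs in WT and 16 in PKA.

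Of the 13 hypoxia-response genes, 4 were lower and 2 higher. Hilpda, a lipid droplet protein that inhibits triglyceride breakdown, showed the widest gap of any member here. It stood at 166 CPM in the WT gland, 175 in the PKA gland, 626 in the WT tumor and 148 in the PKA tumor, and the tumor log2 ratio was -2.08 (-2.15 to -2.00). The PKA tumor thus lay near both glands and the WT tumor alone was high. Ddit4, an inhibitor of mTORC1 signaling, stood at 143, 96.1, 335 and 115 CPM in the same order. Its tumor log2 ratio was -1.54 (-1.63 to -1.46), again with the WT tumor alone high. Vegfa, the main growth factor of blood vessels, stood at 32.2, 21.5, 64.4 and 26.2 CPM. Its ratio was -1.29 (-1.48 to -1.11), and the PKA tumor lay between the glands. Adm, the vasodilator peptide adrenomedullin, stood at 9.04, 10.3, 47.2 and 23.3 CPM, with a tumor log2 ratio of -1.02 (-1.23 to -0.81). Here both tumors were above both glands.

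**Figure D1:**
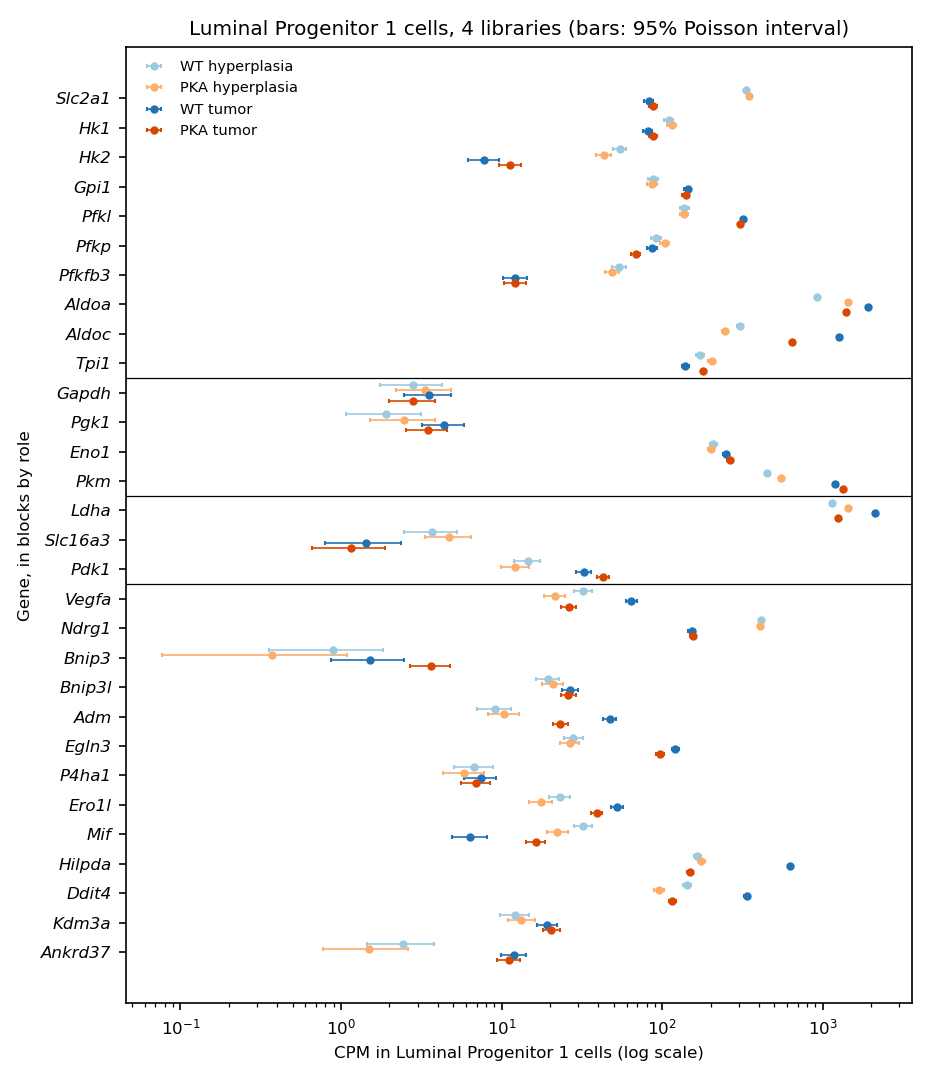
Level of each member in Luminal Progenitor 1 cells (CPM, log axis) in the 4 libraries, with genes in blocks by role and bars for the 95% Poisson interval of the UMIs. Hilpda and Ddit4 stand apart in the WT tumor, at 626 and 335 CPM, while Slc2a1 and Hk2 are lower in both tumors than in both glands.

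Not all hypoxia-response genes shared this direction. Egln3, a HIF prolyl hydroxylase that is itself a HIF target, stood at 121 and 96.9 CPM in the WT and PKA tumor (-0.32, -0.43 to -0.21). Ndrg1, a stress-induced gene, had a log2 ratio of 0.03 (-0.07 to 0.12). The mitophagy receptor Bnip3l had -0.04, the collagen hydroxylase subunit P4ha1 had -0.10, the histone demethylase Kdm3a had 0.09, and Ankrd37 had -0.11. Ero1l, the oxidase that forms disulfide bonds in the endoplasmic reticulum, stood at 52.1 against 39.0 CPM (-0.42, -0.59 to -0.24). The cytokine Mif was higher in PKA, at 6.38 against 16.3 CPM (1.35, 0.96 to 1.77), and so was the mitophagy receptor Bnip3, at 16 against 50 UMIs (1.22, 0.41 to 2.16). Both belong to the 7 members with near-identical stretches elsewhere, and without those 7 genes 0 members were higher and 5 were lower.

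The 6 lower members are shown with the 250 bases before their most upstream start in RefSeq (build GRCm38.p6), since they stood lower together and HIF is known to bind near the starts of many of its targets. Capitals mark ACGTG and GCGTG, the core letters of the HIF motif, on either strand, so that a match on the opposite strand reads CACGT or CACGC. All are written 5' to 3' on the strand of the gene. The windows are chr6:29272238-29272487 (plus strand) for Hilpda, chr10:59951771-59952020 (minus strand) for Ddit4, chr17:46032378-46032627 (minus strand) for Vegfa, chr7:110627407-110627656 (plus strand) for Adm, chr11:78322823-78323072 (plus strand) for Aldoc and chr7:46845554-46845803 (plus strand) for Ldha.
Hilpda: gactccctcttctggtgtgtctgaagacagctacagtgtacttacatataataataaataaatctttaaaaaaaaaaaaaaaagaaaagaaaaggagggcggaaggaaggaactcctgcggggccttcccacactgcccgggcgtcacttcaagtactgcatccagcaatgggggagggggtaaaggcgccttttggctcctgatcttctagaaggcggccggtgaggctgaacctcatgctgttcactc
Ddit4: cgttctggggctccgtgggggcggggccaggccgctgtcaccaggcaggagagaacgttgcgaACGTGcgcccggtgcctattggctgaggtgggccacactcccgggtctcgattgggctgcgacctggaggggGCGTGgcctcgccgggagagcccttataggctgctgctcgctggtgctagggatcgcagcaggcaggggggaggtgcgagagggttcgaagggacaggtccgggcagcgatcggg
Vegfa: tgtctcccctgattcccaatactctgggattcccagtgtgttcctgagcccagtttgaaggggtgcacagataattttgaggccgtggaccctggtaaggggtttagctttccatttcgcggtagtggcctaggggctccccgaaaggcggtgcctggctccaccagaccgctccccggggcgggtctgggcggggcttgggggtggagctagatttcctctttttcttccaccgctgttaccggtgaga
Adm: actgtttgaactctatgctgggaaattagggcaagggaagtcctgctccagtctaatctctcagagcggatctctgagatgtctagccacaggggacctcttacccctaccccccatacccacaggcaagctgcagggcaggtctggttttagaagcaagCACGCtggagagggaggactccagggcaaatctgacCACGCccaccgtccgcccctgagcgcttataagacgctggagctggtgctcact
Aldoc: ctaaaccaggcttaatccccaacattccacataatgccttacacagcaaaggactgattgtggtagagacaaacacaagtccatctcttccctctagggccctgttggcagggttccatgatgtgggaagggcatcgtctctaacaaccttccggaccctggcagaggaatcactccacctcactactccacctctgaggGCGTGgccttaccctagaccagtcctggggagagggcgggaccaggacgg
Ldha: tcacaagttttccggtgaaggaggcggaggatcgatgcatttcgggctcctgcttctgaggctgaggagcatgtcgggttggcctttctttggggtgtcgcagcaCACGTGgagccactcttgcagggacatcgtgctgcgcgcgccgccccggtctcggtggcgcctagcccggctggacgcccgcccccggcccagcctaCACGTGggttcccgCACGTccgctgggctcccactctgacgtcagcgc
The Hilpda and Vegfa windows held neither set of letters, and letters outside the 250 bases were not searched. The first bases after the start were found in an annotated transcript for Hilpda, Ddit4 and Aldoc, but not for Vegfa, Adm and Ldha. The Ldha window held ACGTG 5 times, counting both strands, since CACGTG reads the same on each. Ddit4 held each motif 1 time, and Aldoc and Adm held only GCGTG, 1 time and 2 times. Of the 30 members, 28 matched a RefSeq entry, Ero1l through its synonym Ero1a, while Ndrg1 and Bnip3l did not. ACGTG occurred in 12 of these 28 windows (42.9%) and in 16.5% of 27025 windows of the same length. GCGTG occurred in 14 (50%) against 28.3%, and either of them in 20 (71.4%) against 38.6%. TGACG, the core of the cAMP response element bound by the PKA target Creb1, occurred in 7 (25%) against 17.8%, and it can share bases with ACGTG. It is not marked in the sequences. The Hilpda window held TGACG 1 time and the Ldha window 2 times, counting both strands. The Ddit4, Vegfa, Adm and Aldoc windows held it 0 times. The set was given as glycolysis and hypoxia genes, known HIF targets among them, and the windows were not matched for base content. These are matches of letters in 1 window per gene, and no binding was measured.

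The authors' clusters within the Luminal Progenitor 1 class showed how far the gaps held inside the tumors. The class spanned 3 deposited clusters in the WT tumor (5, 6 and 7, with 1556, 399 and 388 cells) and 4 in the PKA tumor (1, 3, 5 and 7, with 1468, 519, 111 and 59 cells). The number 6 carried a different class in each tumor, so equal numbers are not taken as matching clusters. Hilpda stood at 509, 1010.5 and 585 CPM in the WT clusters and at 165, 87.6, 97.9 and 37.5 CPM in the PKA clusters. Ddit4 stood at 348, 334 and 268 CPM against 122, 86.1, 90.5 and 135 CPM. For these 2 of 30 members every PKA cluster lay below every WT cluster, as did 8.11% of all genes. Tpi1 was the 1 member with every PKA cluster above every WT cluster, at 165 to 206 against 115 to 164 CPM, as were 4.3% of all genes, although the interval of PKA cluster 7, with 22 Tpi1 UMIs, met those of the WT clusters. The other 27 members overlapped, so neither count of members was above the share of all genes. Vegfa stood at 32.1 to 71.8 CPM in WT clusters and 15 to 37.5 CPM in PKA clusters. Aldoc and Ldha varied widely within each tumor. PKA cluster 5 carried Aldoc at 1501 CPM and Ldha at 1963 CPM, and WT cluster 7 carried them at 464 and 1202 CPM. Aldoa also peaked in PKA cluster 5, at 3415 CPM, above the WT maximum of 2222 CPM in WT cluster 5. Clusters of 1 library are not replicates.

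**Figure D2:**
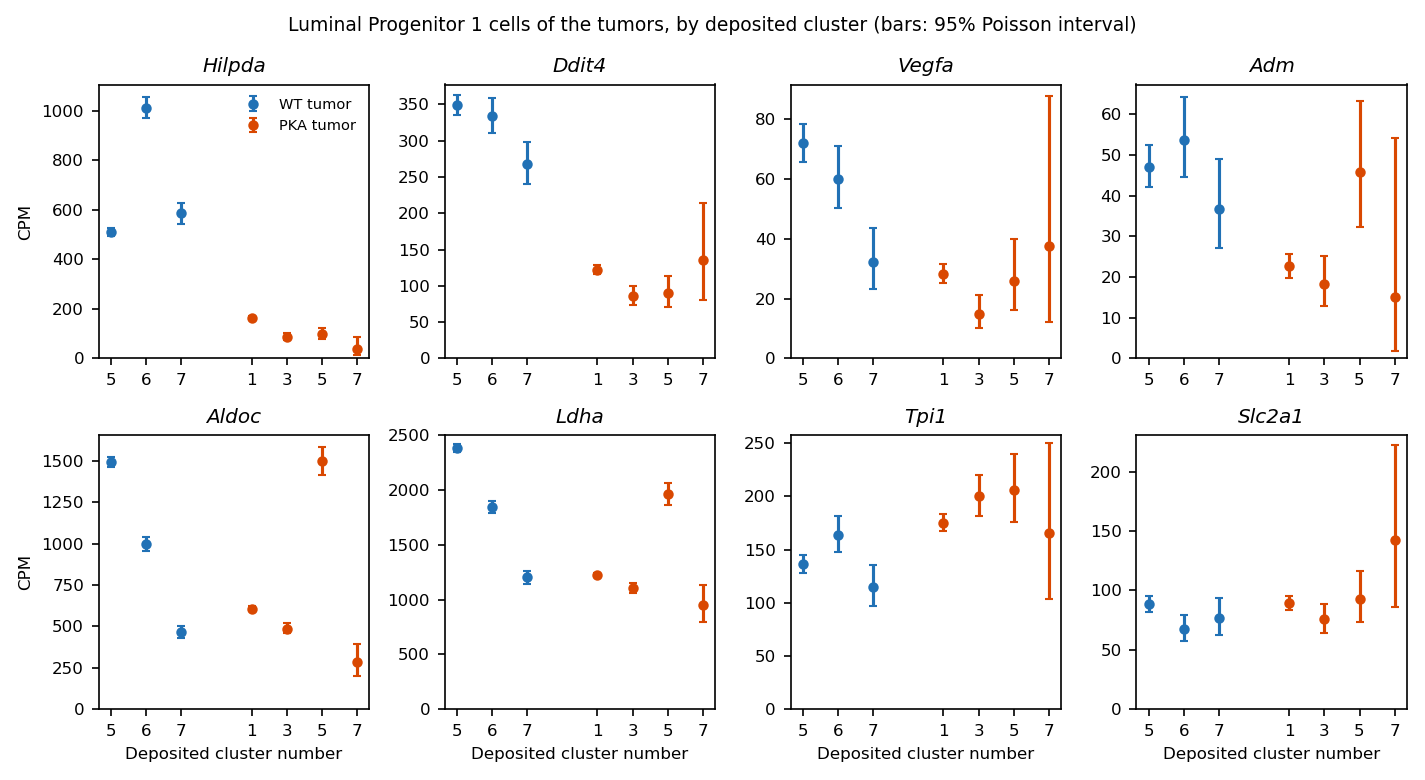
Level (CPM) of 8 members in each deposited cluster of Luminal Progenitor 1 cells, WT tumor on the left and PKA tumor on the right of each panel, with 95% Poisson intervals. Of the 8, Hilpda, Ddit4 and Tpi1 have cluster levels that do not overlap between tumors, and Aldoc reaches 1501 CPM in PKA cluster 5.

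The gap between the tumors was also looked at cell by cell. To compare cells of unequal depth, each was thinned to 2000 UMIs, which left out 148 of 2343 WT and 158 of 2157 PKA Luminal Progenitor 1 tumor cells. The 13 hypoxia-response genes together then held a mean of 2.97 UMIs per cell in the WT tumor and 1.38 in the PKA tumor. Before thinning, the means over all cells of the class were 6.59 and 4.42. Cells with 0 of these UMIs made up 17.4% in WT and 34.4% in PKA. At the 90th percentile of cells the count was 7 in WT and 3 in PKA. The tenth of cells with most held 35.5% of the UMIs in WT and 36.3% in PKA. Hilpda, Ddit4, Vegfa and Adm, the 4 already counted as lower, carried nearly all of this gap, with a mean of 2.16 UMIs in WT and 0.612 in PKA. Cells with 0 UMIs of these 4 genes made up 35.0% and 65.7%, and the tenth of cells with most held 44.4% and 54.9% of their UMIs. The other 9 genes held a mean of 0.772 UMIs in WT and 0.748 in PKA, with 50.6% and 51.4% of cells at 0. These 4 were picked by their lower sums in the same cells, so the split restates those sums. The other 9 include genes of both directions. In the glands, thinning left out 632 of 2722 WT and 775 of 2885 PKA cells of this class, so the gland values describe the deeper cells. By the mean of all 13 genes, both gland libraries lay nearer to the PKA tumor, at 1.78 in WT and 1.66 in PKA hyperplasia. By cells at 0, the WT gland (24.0%) lay nearer to the WT tumor and the PKA gland (27.8%) nearer to the PKA tumor. The other 9 genes held means of 1.09 in the WT gland and 1.04 in the PKA gland, above both tumors. No class that should lack these genes was at hand, so the share that free RNA gives was not measured.

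**Figure D3:**
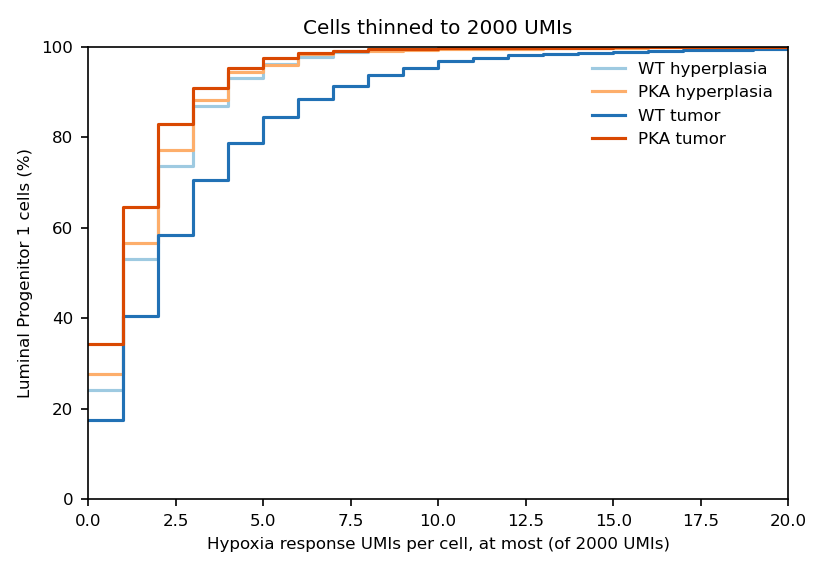
Cumulative share of Luminal Progenitor 1 cells (%) by the number of hypoxia-response UMIs at most, after thinning every cell to 2000 UMIs. Cells with fewer UMIs were left out. The WT tumor curve lies below the other 3, starting at 17.4% of cells with 0 UMIs against 34.4% in the PKA tumor.

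Regulators of oxygen sensing did not follow 1 direction in these cells. Hif1a, the oxygen-labile subunit, was the higher one in PKA cells at 61.4 against 38.6 CPM (0.67, 0.50 to 0.85). Epas1, which encodes the HIF2 alpha subunit, was lower at 10.7 against 16.9 CPM (-0.66, -0.98 to -0.33). Their shared partner Arnt stood at 33.8 and 32.9 CPM (0.04, -0.17 to 0.24). Vhl, which recognizes hydroxylated HIF, had -0.37 (-0.67 to -0.06), and the hydroxylase Egln1 had 0.45 (0.01 to 0.91). HIF is controlled mostly at the protein level, which was not measured. Of 10 oxygen-sensing genes with enough UMIs, 1 was higher and 2 were lower. Of 24 other hypoxia-response genes, 4 were higher and 5 lower. Among the lower were the carbonic anhydrases Car9 (45.8 against 82.6 CPM, -0.85, -1.0 to -0.70) and Car12 (74.9 against 152 CPM, -1.02, -1.13 to -0.90), which buffer acid. Among the higher were Stc2, a secreted stress glycoprotein (1.13, 0.72 to 1.57), and Angptl4, an inhibitor of lipoprotein lipase (9.11 against 3.14 CPM, 1.52, 0.97 to 2.13). Of 15 other glycolysis and pyruvate genes, 1 was higher and 3 lower. Pfkfb4, a relative of Pfkfb3, was lower at 0.651 against 4.10 CPM (-2.59, -3.88 to -1.6), and Bpgm, which diverts a glycolytic intermediate, was lower with -0.78 (-0.97 to -0.60). The immediate early genes, which dissociation of tissue is known to induce, summed to 43008 and 36926 CPM in the WT and PKA tumor, and their part in these differences was not tested.

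In the class named Lumino-Basal, the members leaned the other way. Of 28 members with enough UMIs, 14 were higher in the PKA tumor and 5 lower, against 22.1% and 25.7% of 11177 genes. The median log2 ratio was 0.46 over the members and -0.04 over all genes. The PKA tumor had only 66 such cells with 409700 UMIs, against 1198 in WT, and the higher members rest on as few as 7 PKA UMIs (Mif).

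Uptake and upper glycolysis held 7 of the 14 higher members, with 1 lower. Slc2a1 stood at 183 CPM (144 to 229) in PKA and 41.5 CPM (36.7 to 46.7) in WT cells, a log2 ratio of 2.15 (1.75 to 2.51). Pfkp, the platelet-type phosphofructokinase, stood at 132 CPM (99.0 to 172) against 30.3 CPM (26.2 to 34.7), a log2 ratio of 2.13 (1.66 to 2.56). The counting intervals of the 2 libraries did not meet, and both genes differed by less than 1.5-fold in Luminal Progenitor 1 cells. Hk1, Hk2, Pfkfb3, Aldoa and Tpi1 were higher with log2 ratios of 0.82, 1.07, 1.02, 0.76 and 0.86, the interval of Pfkfb3 reaching below 0. Aldoc was lower here too (-0.90, -1.26 to -0.57). Lower glycolysis had no member past 1.5-fold. Of the pyruvate and lactate genes, Slc16a3 was higher on 16 PKA and 91 WT UMIs (1.56, 0.65 to 2.30), and Pdk1 was lower (-1.31, -2.45 to -0.49).

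The hypoxia-response genes of this class divided, with 6 higher and 3 lower. P4ha1 stood at 41.5 against 4.34 CPM (3.27, 2.30 to 4.17), Vegfa at 166 against 55.1 CPM (1.6 (1.20 to 1.97)) and Egln3 at 97.6 against 34.4 CPM (1.52, 0.98 to 1.99). All 3 act outside the pathway itself, in collagen, vessels and oxygen sensing. Adm (1.05), Ndrg1 (0.77) and Mif (1.01, with an interval reaching below 0) were higher as well. Hilpda, at 225 against 379.8 CPM (-0.75, -1.07 to -0.46), Ero1l (-1.09) and Ankrd37 (-0.90) were lower. Thus Hilpda and Aldoc stood lower in the PKA tumor in both classes, whereas Vegfa and Adm took opposite directions. Of 21 other hypoxia-response genes, 9 were higher and 2 lower. Angptl4 reached 95.2 against 2.85 CPM (5.04, 4.24 to 5.94) and the collagen lysyl hydroxylase Plod2 51.3 against 7.49 CPM (2.79, 1.97 to 3.54). Cited4, which competes for HIF coactivators, was lower at 149 against 983 CPM (-2.71, -3.11 to -2.36).

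Other genes moved with this class. The 4 squamous genes Klk6, Klk10, Krt79 and Asprv1 summed to 4129 and 286 CPM in WT and PKA cells, with Krt79 at 0 UMIs in PKA. The fibroblast markers summed to 117 and 737 CPM in WT and PKA cells, with a UMI for 6 of 6 markers in each. Nearly all of the PKA sum was Dcn, at 681 CPM, while Col1a1 stood at 7.32 CPM, and Vim stood at 303 against 14.98 CPM. With only the cells of fewer than 3 squamous UMIs, 14 members were again higher and 5 lower. The median was then 0.69, beside -0.04 for all genes, and the number of cells kept is not given here. The part of the squamous and fibroblast genes in these ratios was not tested.

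**Figure D4:**
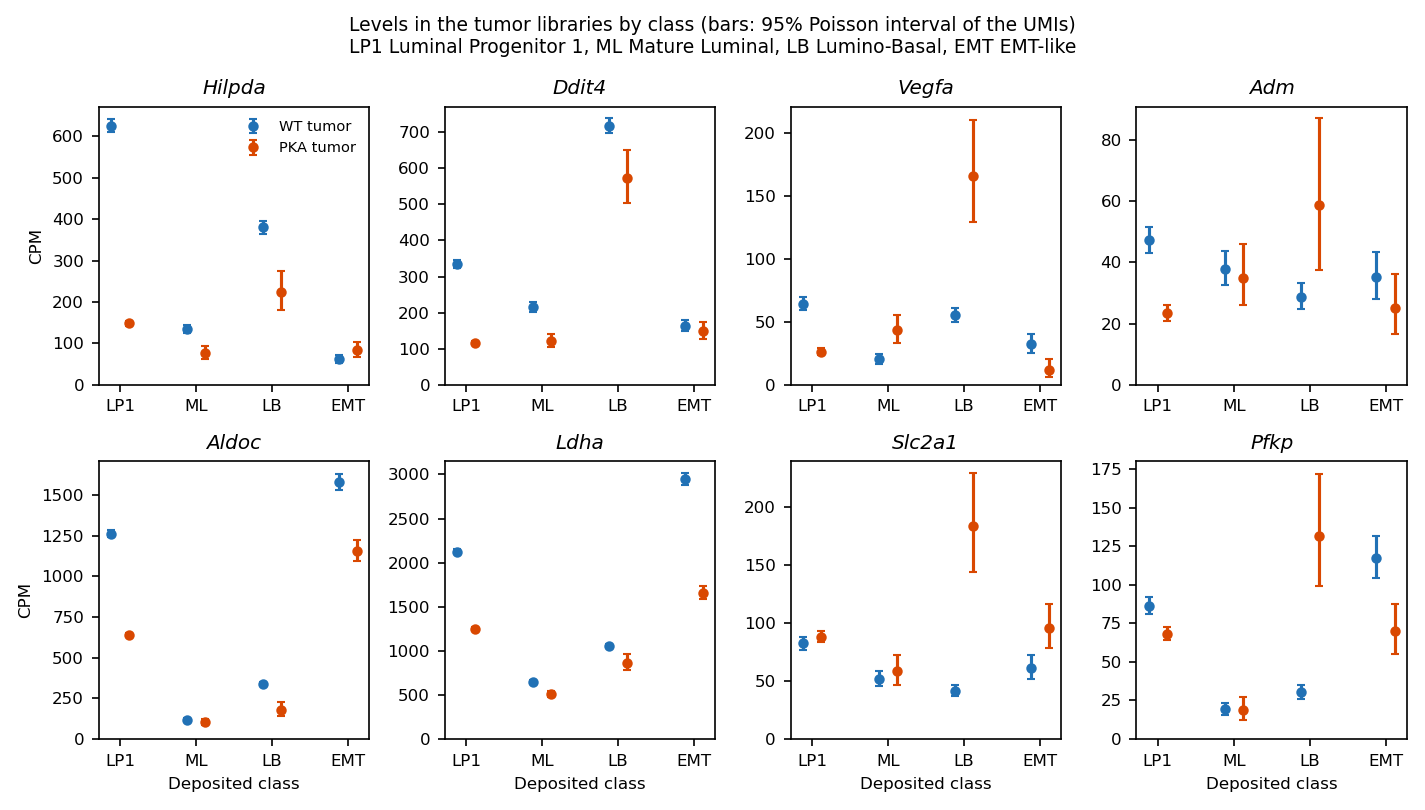
Level (CPM) of 8 members in the 4 deposited classes of each tumor, with 95% Poisson intervals. Vegfa and Adm are lower in PKA than in WT Luminal Progenitor 1 cells and higher in PKA Lumino-Basal cells, where Slc2a1 reaches 183 CPM.

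In Mature Luminal cells, which carry hormone receptors, the shares of members past 1.5-fold were near those of all genes. Of 27 members with enough UMIs, 6 were higher in the PKA tumor and 2 lower, against 18.6% and 9.99% of 10926 genes, and the median was 0.15 beside 0.07 for all genes. Hilpda and Ddit4 were the 2 lower members, at 76.8 against 134 CPM (-0.80, -1.11 to -0.51) and 122 against 215 CPM (-0.81, -1.06 to -0.59). Vegfa was higher at 43.3 against 20.3 CPM (1.10, 0.61 to 1.57). Mif (1.77), Ankrd37 (0.89), Pfkfb3 (0.84) and Pdk1 (0.62) were higher too, as was Pgk1 on 11 PKA and 25 WT UMIs. The main steps of glycolysis differed less. Slc2a1, Aldoa, Pkm and Ldha stayed within 1.5-fold, with log2 ratios of 0.19, -0.08, -0.06 and -0.34. Markers of other cells differed in this class. The fibroblast markers summed to 901 CPM in WT, where 2 of 6 had a UMI and nearly all was Dcn, and to 30.0 CPM in PKA, where 3 of 6 had one. The 4 markers of the EMT-like class summed to 573 and 1476 CPM, and hemoglobin genes of red cells to 16.6 and 112 CPM. Col1a2, Col3a1 and Lum were at 0 in both tumors. The part of these genes in the member values was not tested.

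In the class named EMT-like, 5 of 23 members were higher in PKA and 4 lower, against 14.6% and 13.9% of 9183 genes, with medians of 0.00 and 0.01. Ldha was lower, at 1660.4 against 2953 CPM (-0.83, -0.91 to -0.76), and its WT level was the highest of any class and library. Vegfa (-1.38, -2.40 to -0.57), Ndrg1 (-1.21, -1.61 to -0.85) and Pfkp (-0.74, -1.13 to -0.37) were lower as well. Glucose uptake genes were on the other side. Slc2a1 stood at 96.0 against 61.3 CPM (0.65, 0.27 to 1.02) and Hk1 at 129 against 82.2 CPM (0.65, 0.33 to 0.97). Pdk1 (0.87), Mif (2.58) and Ankrd37 (0.97) were the other higher members. Ldhb was again on the other side of Ldha, at 284 against 114 CPM (1.32, 1.08 to 1.56). Hilpda and Ddit4 stayed within 1.5-fold in this class, at 0.44 and -0.14.

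Summed over all annotated tumor cells, 7 of 30 members were lower in PKA and 2 higher, against 13.6% and 15.5% of 16701 genes. The median was -0.06, beside -0.03 for all genes. These sums also carry the shares of the classes, with 1198 of 5181 WT and 66 of 2638 PKA tumor cells in the Lumino-Basal class. Ankrd37 stood at 12.4 against 25.6 CPM over all cells (-1.04, -1.28 to -0.82) but had -0.11 within Luminal Progenitor 1, and WT Lumino-Basal cells carried 65.7 CPM. With equal class shares in both tumors, Vegfa moved from -0.72 to -0.17 and Ankrd37 to -0.29, while Hilpda stood at -1.71 and Ddit4 at -0.95. Slc16a3 turned from -0.69 to 1.35.

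**Figure D5:**
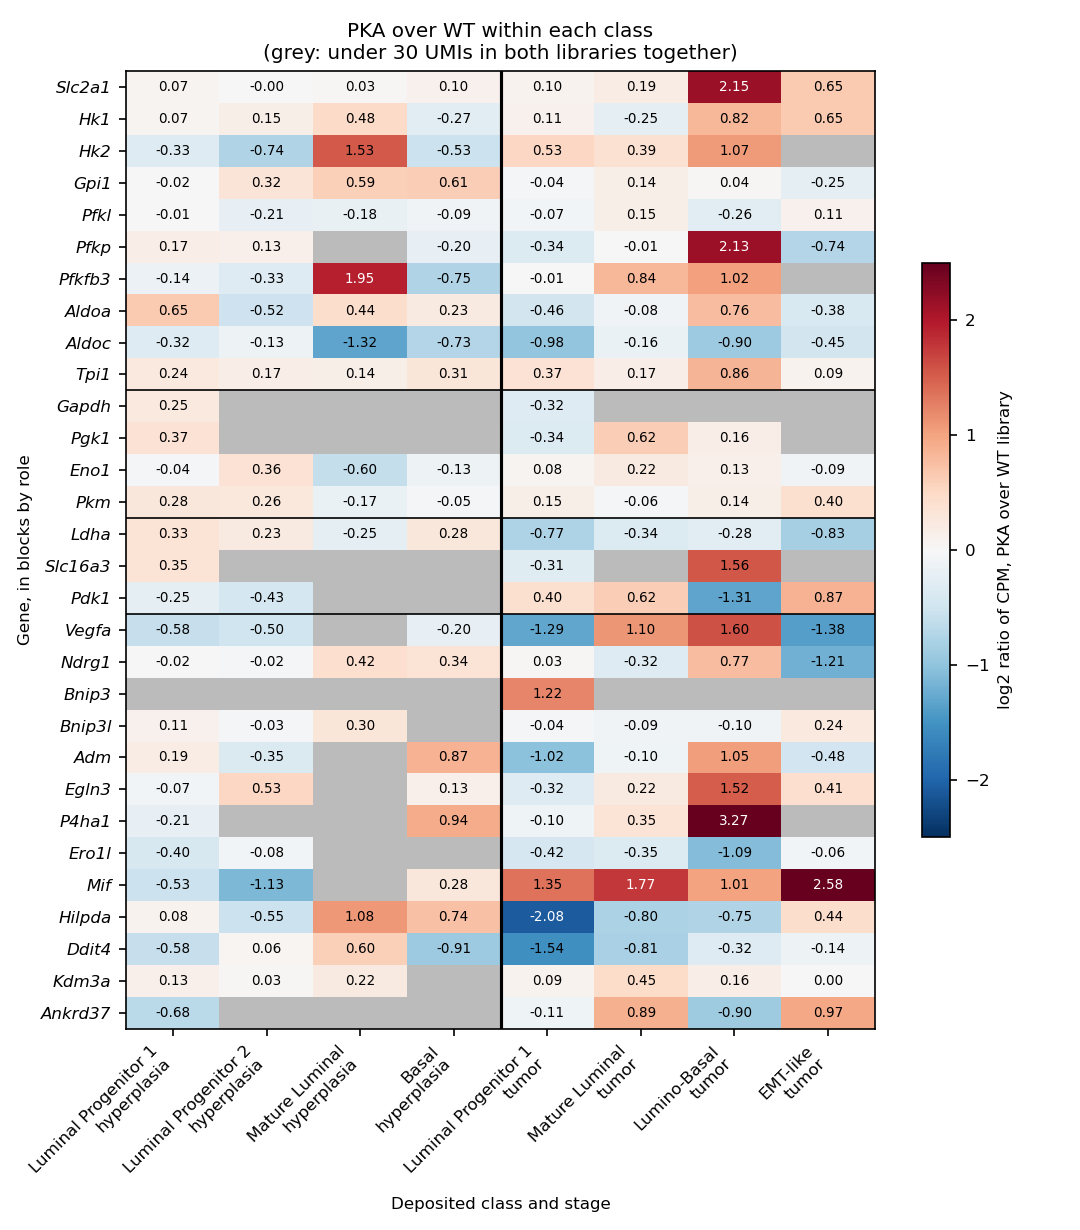
Log2 ratio of CPM, PKA over WT library, for the 30 members (lines, in blocks by role) in the 4 deposited classes of each stage, with values printed and pairs of under 30 UMIs in grey. In gland Luminal Progenitor 1 cells 1 of 29 members is at least 1.5-fold higher and 1 lower, and in tumor Lumino-Basal cells 14 of 28 are higher and 5 lower.

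In hyperplastic glands the PKA and WT libraries were close in the 2 Luminal Progenitor classes and further apart in the small ones. In Luminal Progenitor 1 cells, 29 members had enough UMIs, 1 was higher (6.41% of 12035 genes) and 1 lower (7.1%), and the medians were -0.01 for members and for all genes. Aldoa was the higher one, at 1430.0 against 914 CPM (0.65, 0.60 to 0.69). In the tumors the WT library was the higher one. Ankrd37 was lower on 12 and 19 UMIs, with an interval that spans 0 (-0.68, -1.87 to 0.42). Vegfa and Ddit4 were just within 1.5-fold, each at -0.58, and Ldha stood at 0.33 and Hilpda at 0.08. Over all gland cells 0 of 29 members were higher (6.59% of 13382 genes) and 1 was lower (6.67%), namely Mif (-0.59, -0.83 to -0.35), with medians of 0.03 and 0.00.

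In Luminal Progenitor 2 cells 0 of 24 members were higher (6.77% of 8666 genes) and 2 were lower (6.45%), with medians of -0.03 and 0.03. Hk2 stood at 52.9 against 88.9 CPM (-0.74, -1.17 to -0.35) and Mif at 18.1 against 40.3 CPM (-1.13, -1.87 to -0.49). Aldoa, higher in Luminal Progenitor 1, stood here at 961 against 1380.1 CPM (-0.52, -0.62 to -0.43), on the other side of 0 and within 1.5-fold.

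Gland Mature Luminal cells were few (116 in WT, 251 in PKA) but differed more. Of 17 members with enough UMIs, 5 were higher (12% of 5502 genes) and 2 lower (14.9%), with medians of 0.30 and -0.07. Pfkfb3 stood at 216 CPM (184 to 251) in PKA and 54.7 CPM (33.8 to 83.6) in WT, a log2 ratio of 1.95 (1.32 to 2.71). Hk2 stood at 85.5 CPM (66.0 to 109) against 28.6 CPM (14.3 to 51.2), a log2 ratio of 1.53 (0.64 to 2.65). In both cases the intervals of the 2 libraries did not meet. Hilpda (1.08, 0.23 to 2.12), Ddit4 (0.60, 0.07 to 1.19) and Gpi1 (0.59, 0.07 to 1.15) were higher, and Aldoc (-1.32, -1.98 to -0.68) and Eno1 (-0.60, -1.16 to -0.03) lower. Outside the 31, Stc2 stood at 527 against 88.5 CPM (2.56, 2.07 to 3.13). Dcn differed as well in this class, at 117 CPM in PKA and 599 in WT, within fibroblast sums of 119.7 CPM (3 of 6 markers with a UMI) and 609 CPM (4 of 6). Red cell hemoglobin summed to 64.5 CPM in PKA and 427 CPM in WT, all of it from 1 of 4 genes, Hba-a1. The part of these genes was not tested.

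In gland Basal cells 4 of 21 members were higher (8.59% of 4752 genes) and 3 lower (10.6%), with medians of 0.10 and 0.00. Adm stood at 129 against 69.6 CPM (0.87, 0.23 to 1.58) and Hilpda at 113 against 67.1 CPM (0.74, 0.07 to 1.47), and P4ha1 (0.94, -0.04 to 2.07) and Gpi1 (0.61, -0.09 to 1.36) had intervals that span 0. Ddit4 was lower at 246 against 463 CPM (-0.91, -1.25 to -0.58), and Pfkfb3 and Aldoc were lower with intervals that span 0. The fibroblast markers summed to 1639 and 807 CPM in WT and PKA Basal cells and the macrophage markers to 328 and 1.95 CPM, and their part in these values was not tested.

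Between stages, the Luminal Progenitor 1 cells of the WT tumor carried more of most members than those of the WT gland. The 6 members lower by at least 1.5-fold were Slc2a1, Hk2, Pfkfb3, Slc16a3, Ndrg1 and Mif. Of 29 members, 16 were higher in the tumor (37.7% of 13384 genes) and 6 lower (18.9%), with medians of 0.71 for members and 0.27 for all genes. In PKA, 11 of 30 were higher (38.6% of 14221 genes) and 6 lower (17.7%), with medians of 0.27 and 0.29. The 2 stage comparisons use the same tumor libraries as the comparisons of PKA with WT, so the high WT tumor levels enter both.

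Slc2a1, Hk2 and Pfkfb3 were lower in both tumors. Slc2a1 stood at 334 CPM in the gland and 82.5 CPM in the tumor of WT, a log2 ratio of tumor over gland of -2.01 (-2.13 to -1.90). In PKA it stood at 349 and 88.2 CPM (-1.98, -2.08 to -1.89). In this class the WT and PKA libraries of each stage thus had near-equal Slc2a1 levels. Hk2 had -2.80 in WT and -1.94 in PKA, and Pfkfb3 had -2.14 and -2.01. Further down the pathway the genes were mixed. Gpi1, Pfkl, Aldoc, Pkm and Pdk1 were higher in both tumors. Pfkl had 1.22 in WT and 1.15 in PKA, Aldoc 2.05 and 1.38, and Pkm 1.40 and 1.28. Aldoa and Ldha were higher in the WT tumor, at 1.07 and 0.89, and stood at -0.04 and -0.21 in PKA. Pfkp was lower in the PKA tumor (-0.60, -0.73 to -0.46) and had -0.09 in WT. Of the 4 lower-glycolysis genes, Pkm alone was higher in PKA, and Pkm and the sparse Pgk1 in WT, with Eno1 at 0.27 in WT and 0.39 in PKA.

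Of the hypoxia-response genes, Egln3 (2.11 in WT, 1.86 in PKA), Adm (2.37, 1.17), Ero1l (1.17, 1.15), Kdm3a (0.67, 0.62) and Ankrd37 (2.27, 2.84) were higher in both tumors. Hilpda and Ddit4 were higher in the WT tumor (1.92 and 1.23) and stood at -0.24 and 0.26 in PKA. Vegfa likewise had 1.0 in WT and 0.29 in PKA. The sparse Bnip3 was higher in the PKA tumor. Ndrg1 was lower in both tumors, at -1.43 and -1.39, and so were Mif in WT (-2.33) and the sparse Slc16a3. Trypsin and dispase are stated for glands alone, so stage and protocol cannot be told apart. The series design also states that glands and tumors of 1 mouse were processed, while it gives different ages for the stages, so whether a tumor and a gland library share mice is not clear. The immediate early genes summed to 6721 and 6730 CPM in WT and PKA gland cells of this class and to 43008 and 36926 CPM in the tumors, and their part was not tested.

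In Mature Luminal cells, 11 of 26 members were higher in the WT tumor than in the WT gland (30.1% of 10297 genes) and 4 lower (23.8%), with medians of 0.39 and 0.08. Egln3 had 0 gland UMIs there and its tumor level of 7.38 CPM lay under the 7.81 CPM that 3 gland UMIs would give, so no fold is given. With Egln3 at that bound, 10 were higher and 4 lower. In PKA, 10 of 22 were higher (28.4% of 8025 genes) and 4 lower (14.7%), with medians of 0.17 and 0.15. Slc2a1 and Pfkfb3 were lower in both tumors in this class as well, Slc2a1 with -0.84 in WT and -0.67 in PKA. Pkm was higher in both, with 1.45 (1.25 to 1.66) and 1.57 (1.40 to 1.74).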

How the data were processed

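Single-cell RNA libraries (10x 3' kit, 98-base reads) of 4 groups, with 1 library each, were analysed, grouped by their labels. The deposited count files hold UMI counts per gene and barcode, made by the authors with Cell Ranger, STAR 2.5.3a and featureCounts of Subread 1.6.0 on GRCm38/mm10, per the submitters' processing notes. Which gene annotation was counted is not given in the sources used. The deposited tables of cells give the fraction of mitochondrial UMIs as the authors computed it and a class, assigned with Monocle2 per the series design. In the WT and PKA glands, 3808 of 5179 and 3818 of 4858 barcodes were annotated and used, and in the WT and PKA tumors 5181 of 5800 and 2638 of 2934. The filter between them is not stated, and no doublets were removed.

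UMIs were summed per library and class of at least 50 cells and scaled to CPM. Log2 ratios carry exact conditional binomial intervals and levels carry Poisson intervals, which cover counting error only. Total UMIs per library were 10648097 to 24499374. Members and gene lists were chosen with earlier results of these data known. Named genes were all members, up to 6 genes past 1.5-fold of each other list by size of the log2 ratio, markers, and Hif1a, Epas1, Arnt, Vhl, Egln1, Ldhb and Slc16a1 whatever their value. Promoter letters were searched in RefSeq windows, and near-identical stretches with BLAST 2.17.0. Log2 ratios and their intervals were tested on simulated data with counting error alone, and the 1.5-fold calls were not. Alternatives were 12 other settings. Tools were matplotlib 3.10.9, pandas 2.3.3, SciPy 1.17.1 and NumPy 2.4.6 under Python 3.11.15, and R 4.3.3 with edgeR 4.0.16 for TMM factors.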

Additional observations from a re-analysis of the deposited data

Results flagged for a closer look

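Some members differed by at least 1.5-fold in opposite directions between cell classes of the same 2 libraries. This held for 3 members in hyperplasia and 6 in the tumors. How many of all genes do the same was not counted, so these counts are not read as a trait of the members. In tumor Lumino-Basal cells 22.1% of all genes were higher and 25.7% lower. The difference between classes was not tested, since each class has 1 sum per library. All values are log2 ratios of PKA over WT.

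In the glands, Hk2 had 1.53 in Mature Luminal cells and -0.74 in Luminal Progenitor 2 cells. Pfkfb3 had 1.95 in Mature Luminal and -0.75 in Basal cells, and Ddit4 had 0.60 and -0.91 in the same classes. The 2 classes with most of the opposing values are also the smallest, with 116 to 251 cells per library.

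In the tumors, Vegfa had -1.29 in Luminal Progenitor 1 and -1.38 in EMT-like cells, against 1.10 in Mature Luminal and 1.6 in Lumino-Basal cells. Adm had -1.02 in Luminal Progenitor 1 and 1.05 in Lumino-Basal cells. Pfkp had 2.13 in Lumino-Basal and -0.74 in EMT-like cells, and Ndrg1 had 0.77 and -1.21 in the same classes. Pdk1 had 0.62 in Mature Luminal, 0.87 in EMT-like and -1.31 in Lumino-Basal cells. Ankrd37 had 0.89, 0.97 and -0.90 in that order. The Lumino-Basal class enters every one of these 6 differences, and it held 66 cells in the PKA tumor.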

How the results depend on the processing

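Every comparison has 1 library per group, so no replicate could be left out and depth limits only the sparse members. No paired analysis was possible because each group has 1 library. Of the medians of members under the other settings, 104 lay within the spread of the main value and 2 moved. That spread was taken from the widths of the members' single-gene counting intervals and is not an error of the median. It is wide in sparse classes, so a median within it may still have shifted. The lower Lumino-Basal median with at least 100 UMIs, given below, counted as within it. Both moved medians were of WT tumor against hyperplasia in Luminal Progenitor 1 cells, where 0.71 became 0.49 with TMM factors and 1.0 without the 7 members that have near-identical copies. TMM factors also took the median of all genes there from 0.27 to 0.05, and in PKA from 0.29 to 0.05. They took it from 0.07 to -0.12, from -0.04 to -0.21 and from 0.01 to -0.11 in Mature Luminal, Lumino-Basal and EMT-like tumor cells. In Mature Luminal cells they took it from -0.07 to 0.06 in the glands, and between stages from 0.08 to 0.24 in WT and from 0.15 to 0.03 in PKA. Totals that leave out milk, mitochondrial and ribosomal protein genes took the WT stage value to -0.03. For single genes 582 values lay within the gene's own counting interval, 41 moved and 1 reversed. The reversed value was Slc16a3 over all tumor cells, at 1.35 with equal class shares against -0.69. Thinned to 1000 UMIs in place of 2000, hypoxia-response UMIs made up 0.124% against 0.106% in PKA gland Basal cells, 0.182% against 0.174% in WT Lumino-Basal cells and 0.0654% against 0.0692% in PKA tumor Luminal Progenitor 1 cells, and 13 other values lay within their spread. The cause was not tested. Of counts of members, 194 stayed within 1.5 times and 46 did not.

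Counts changed most with the fold and the minimum of UMIs, which by construction leave fewer members. At a fold of 2, Luminal Progenitor 1 tumor cells had 4 lower members, and with at least 100 UMIs 1 higher member. Over all tumor cells, 3 were lower at a fold of 2, 5 were higher with the same class shares and 0 were higher without the copied members. In Lumino-Basal cells the 14 higher and 5 lower became 10 and 2 at a fold of 2, with 13 higher under TMM factors and 11 with at least 100 UMIs, where the median was 0.15. In tumor Mature Luminal cells the 6 higher became 3 with at least 100 UMIs and 2 at a fold of 2, where 0 were lower. In EMT-like cells the 5 higher became 3 under TMM factors or with at least 100 UMIs, 8 with at least 10 UMIs and 1 at a fold of 2, where 2 were lower. In the glands, Luminal Progenitor 1 cells had 0 members past a fold of 2. Luminal Progenitor 2 cells had 1 lower at that fold or without the copied members, and 2 higher with at least 10 UMIs. Mature Luminal cells had 3 higher at a fold of 2, with the other totals or with at least 100 UMIs, and 1 lower under several settings but 4 with at least 10 UMIs. Basal cells had 0 higher and 1 lower with at least 100 UMIs and 0 past a fold of 2. Between stages, Mature Luminal cells at a fold of 2 had 7 higher and 2 lower in WT and 4 higher in PKA, where at least 100 UMIs left 6.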
